A study of Drosophila melanogaster with 7 samples.

Results

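Of the 13044 merged regions formed by 5 chromatin proteins in Drosophila melanogaster S2 cells, 414 (3.17%) held intervals of Dsk2, WOC and Z4 and none of ROW or HP1c. They were found by pooling the called intervals of the 5 lists, chaining intervals that shared at least 1 bp (both ends counted), and keeping the chains to which exactly Dsk2, WOC and Z4 contributed. The members were thus chosen by the start and end positions of the called intervals, the same values that are described below. Overlap, widths and distances are given as descriptions with no test, and each exact (Clopper-Pearson) 95% interval covers the counting of regions only. The members were 14.6% of the 2835 merged regions that carried all of Dsk2, WOC and Z4. Of the others, 1299 also had ROW, 201 also had HP1c and 921 had both.

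The data are ChIP-Seq interval lists from S2 cells, an established embryonic Drosophila line, and all samples share this untreated line. Chromatin was immunoprecipitated with polyclonal antibodies, raised in rabbit for Dsk2, WOC, ROW and HP1c and in guinea pig for Z4. Each protein had 1 library, and of the 2 inputs 1 was assigned to WOC, ROW and Z4 and the other to Dsk2 and HP1c. The lists give a chromosome, a start and an end, so depth and signal height are unknown and no replicate error can be given. Absence of ROW or HP1c means that no interval was called there, not that the protein was shown to be missing. In comparisons of Dsk2 or HP1c with WOC, ROW or Z4, the protein and the input cannot be told apart. Positions are in the dm3 build as deposited and could be off by 1 bp, since the files do not say from which number they count. Regions were not assigned to genes because the available gene table follows a later genome release.

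HP1c belongs to the HP1 proteins, which bind methylated histone tails through a chromodomain, but it is found mainly in euchromatin. WOC (Without children) and ROW (Relative of WOC) are zinc-finger proteins known to form a complex with HP1c at active genes. Dsk2 is the Drosophila ubiquilin, a ubiquitin-binding protein that was linked to the same complex, and the study asked how it bears on HP1c binding at transcription start sites. Z4 is a zinc-finger protein of the interbands, the decondensed stretches between the bands of polytene chromosomes. Regions that carry WOC, Dsk2 and Z4 without called ROW or HP1c thus hold some of the members of this group and lack others.

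Most members had a simple build, with 1 Dsk2, 1 WOC and 1 Z4 interval that shared a common stretch and Z4 as the widest. Of the 414, 399 (96.4%, 94.1 to 98.0%) held exactly 1 interval of each protein. Intervals of 1 list lay at least 301 bp apart, which left little room for a second interval at a median merged width of 392.5 bp. In 385 (93.0%, 90.1 to 95.3%) there was a stretch common to Dsk2, WOC and Z4, with a median of 111.5 bp over all members and a maximum of 655 bp. The common stretch took a median of 83.8% of the Dsk2 length, 62.7% of the WOC length and 45.1% of the Z4 length. In each of the 29 members without a common base, 1 pair of proteins did not meet. Dsk2 and WOC shared no base in 23 of these and were joined through Z4. WOC and Z4 shared none in 4 of them, and Dsk2 and Z4 shared none in 2.

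Among the 399 members with 1 interval of each, Z4 was the widest of the trio in 303 (75.9%, 71.4 to 80.1%), WOC in 64 and Dsk2 in 32. Dsk2 was the narrowest in 220 (55.1%). The Z4 interval enclosed the Dsk2 interval in 269 (67.4%), the WOC interval in 227 (56.9%), and both in 201 (50.4%, 45.4 to 55.4%). The Dsk2 interval lay inside the WOC interval in 123 (30.8%), and the reverse held in 64 (16.0%). Z4 alone set the lower end of the merged region in 278 members and the upper end in 274.

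**Figure D1:**
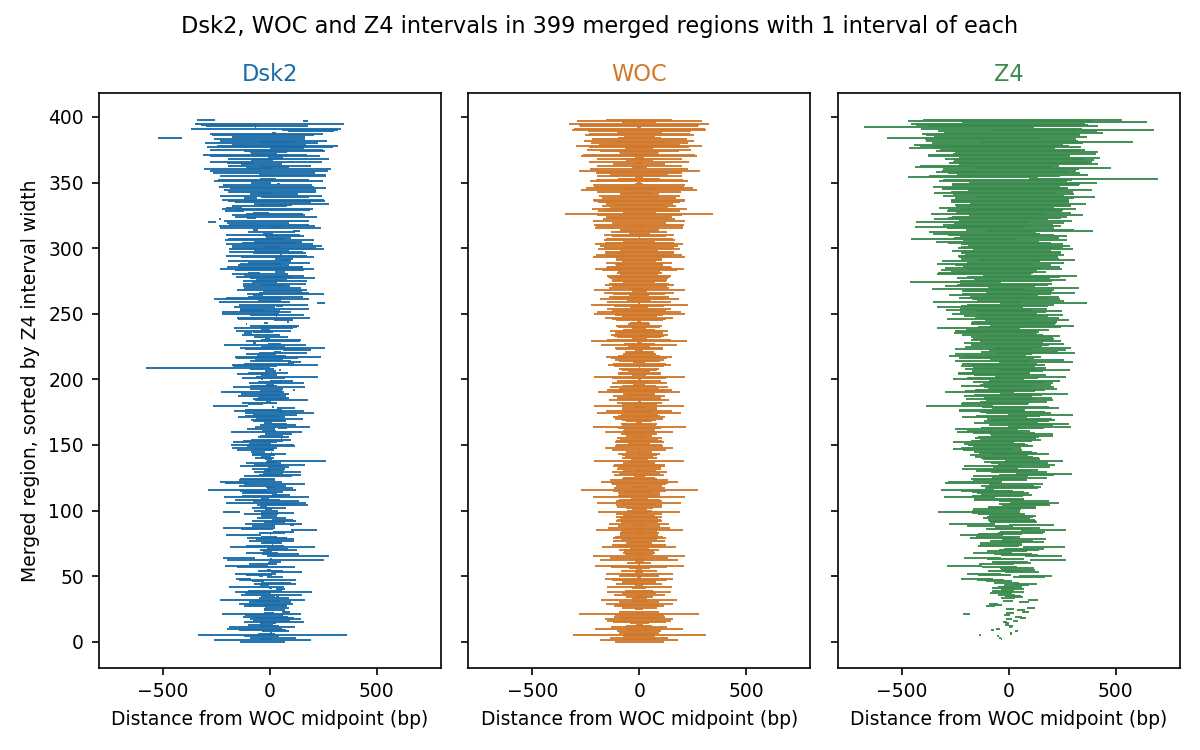
Intervals of Dsk2, WOC and Z4 in the 399 members with 1 interval of each. Each row is a merged region, the x axis is the distance from the WOC midpoint in bp, and rows are sorted by the width of the Z4 interval. WOC is centred on 0 by construction, and Dsk2 lies near 0 in most rows. Z4 reaches beyond them in the upper part, where the sort places the widest Z4 intervals.

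The midpoints of the proteins lay close together. In members with 1 interval of each, the Dsk2 and WOC midpoints were a median of 28.5 bp apart (95% interval of the median 25.5 to 32.5 bp) and lay within 100 bp in 365 (91.5%). Dsk2 and Z4 were a median of 38.5 bp apart (34 to 43 bp) and WOC and Z4 48 bp (41.5 to 50.5 bp). Dsk2 was the protein in the middle in 177 members, WOC in 136 and Z4 in 82. There was no common direction along the chromosome, since Z4 lay at a higher position than Dsk2 in 48.1% (43.1 to 53.1%) and WOC at a higher position than Dsk2 in 52.6% (47.6 to 57.6%). Gene orientation was not available, so an asymmetry relative to transcription was not tested.

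Merged widths ran from 52 to 1475 bp with a median of 392.5 bp (370 to 412 bp). The Dsk2 intervals in members had a median width of 167 bp (155 to 184 bp), the WOC intervals 216 bp (203 to 232 bp) and the Z4 intervals 333.5 bp (315 to 361 bp). Medians over the complete lists were 216, 205 and 352 bp. Very narrow calls contributed to some members. Dsk2 covered under 50 bp in 73 members (17.6%), WOC in 34 and Z4 in 32, and in 115 members (27.8%, 23.5 to 32.4%) at least 1 of the proteins did.

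Widths differed from those in merged regions of other make-up. Width and make-up are not independent under the rule, since a wider interval has more room to meet another list. Where ROW joined Dsk2, WOC and Z4, the Z4 intervals had a median of 550.5 bp (533 to 566 bp), the Dsk2 intervals 221 bp and the WOC intervals 269 bp. Where HP1c joined without ROW, the order was turned, with Dsk2 at 364 bp (336 to 395 bp), WOC at 335 bp and Z4 at 114 bp (84 to 242 bp). In regions of Dsk2 and WOC alone the medians were 121 and 151 bp. Members thus had wider Dsk2 and WOC intervals than regions of that pair and narrower ones than regions with HP1c.

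**Figure D2:**
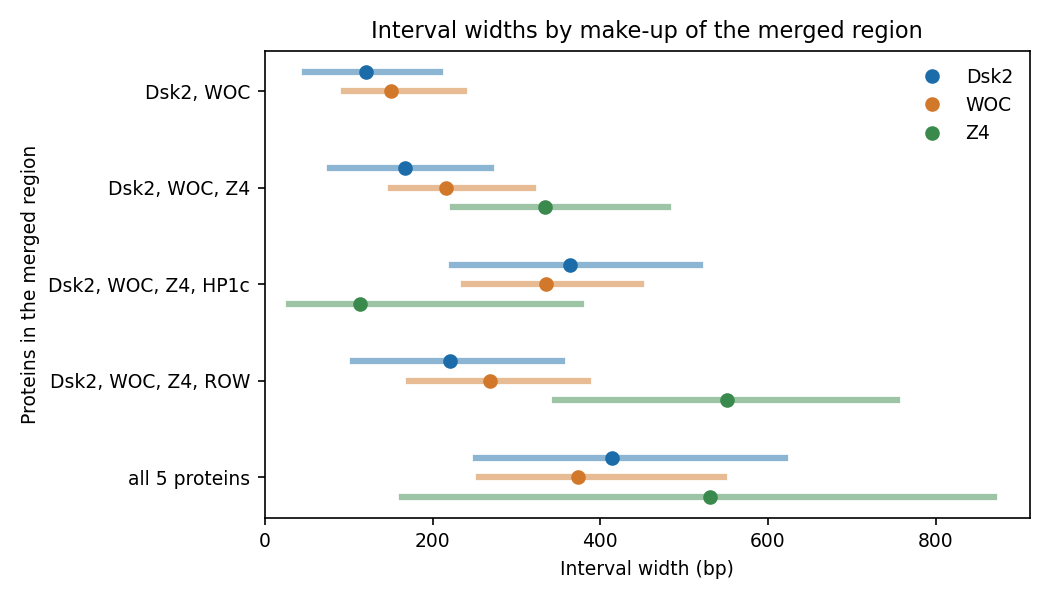
Widths of Dsk2, WOC and Z4 intervals by the proteins present in the merged region. Points are medians and bars run from the 25th to the 75th percentile, in bp. In members the order is Dsk2 (167 bp), WOC (216 bp) and Z4 (333.5 bp), and in regions with HP1c and no ROW Z4 (114 bp) is the narrowest.

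The midpoints were compared with those of regions of other make-up. In the regions with ROW and 1 interval each of the trio (1080 regions), Dsk2 and WOC midpoints were 30 bp apart at the median, against 28.5 bp in members. Dsk2 and Z4 midpoints were 63.5 bp apart (59 to 68 bp), against 38.5 bp in members. Z4 intervals were also wider with ROW (median 550.5 bp, against 333.5 bp in members), and midpoints of wider overlapping intervals can lie farther apart. In the regions with HP1c and no ROW (195 with 1 interval of each), Dsk2 and WOC midpoints were 22 bp apart (18 to 27.5 bp), Dsk2 and Z4 37.5 bp and WOC and Z4 41.5 bp. A common base was present in 88.7% (86.8 to 90.4%) of all 1299 regions with ROW, against 93.0% of members. It was present in 97.5% (94.3 to 99.2%) of the 201 regions with HP1c and no ROW. In the 921 regions with both HP1c and ROW the share was 95.5% (94.0 to 96.8%). Across members, the lengths covered by Dsk2 and WOC were related (Spearman rho 0.70 across 414 regions), and those of Dsk2 and Z4 (0.27) and WOC and Z4 (0.36) less so. These values describe regions within 1 library per protein, and Dsk2 was called against another input than WOC and Z4. In the 201 regions with HP1c and no ROW the corresponding values were 0.83, -0.28 and -0.10, and in the 921 regions with both HP1c and ROW they were 0.84, 0.32 and 0.41. The 1299 regions with ROW and no HP1c had values of 0.72, 0.31 and 0.39, close to those of members. Of these groups, a negative relation of Dsk2 and Z4 length was seen with HP1c and no ROW.

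Single members show the range of layouts. The member at the median width lay on 2L from 20787340 to 20787732, with 94 bp of Dsk2 inside 192 bp of WOC and a Z4 interval of 262 bp that shared 26 bp with Dsk2 and 61 bp with WOC. The widest lay on 2R from 1640724 to 1642198, where a Z4 interval of 1475 bp enclosed 3 WOC intervals of 442 bp in total and a Dsk2 interval of 35 bp. The next widest were in heterochromatin, on XHet from 75424 to 76492 (1069 bp, with 2 Dsk2 and 2 Z4 intervals) and on 3LHet from 593505 to 594529 (1025 bp, with 977 bp of WOC). The longest common stretch was 655 bp on 3R, from 3838773 to 3839586. It was followed by 614 bp on 3R from 13365529 to 13366284 and by 552 bp on X from 8292308 to 8292937.

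The X member just named also had the closest midpoints among members whose intervals were all at least 200 bp wide. Its Dsk2 interval of 552 bp lay inside a WOC interval of 566 bp, which lay inside a Z4 interval of 630 bp, and the midpoints differed by at most 3 bp. On 3L from 7503570 to 7504262, Dsk2 (588 bp), WOC (470 bp) and Z4 (693 bp) had midpoints within 9.5 bp. On 3L from 24529082 to 24529509 they lay within 11 bp. In these examples the intervals were nested around 1 centre. ROW was 11807, 17711 and 1007 bp away.

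ROW was absent from members by rule, and how near it lay depended on how intervals were drawn. The nearest ROW interval lay a median of 1208.5 bp from the end of a member (913 to 1560 bp), where distance is the difference between the facing end positions. It was within 500 bp for 149 members (36.0%, 31.4 to 40.8%) and within 5000 bp for 326 (78.7%). With at least 50 bp required for an overlap, a ROW interval can share fewer bases with a region without joining it, which counts as no distance. The median was then 163 bp and 57.5% had ROW within 500 bp. With every interval set to 200 bp these were 185 bp and 67.9%, and with equal-length lists of the widest intervals 9574 bp and 1.28%. ROW intervals lay within 500 bp on both sides of 17 members (4.11%). For 255 members (61.6%, 56.7 to 66.3%) neither ROW nor HP1c was within 500 bp.

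ROW intervals close to members were short. The nearest ones within 500 bp had a median width of 43 bp (34 to 75 bp), against 245 bp for the complete ROW list, and 78 of the 149 (52.3%, 44.0 to 60.6%) were under 50 bp, against 21.9% of all ROW intervals. Of these 149, 127 (85.2%, 78.5 to 90.5%) were ROW intervals that overlapped no other list, while such regions were 40.9% of all merged regions with ROW. A wide ROW interval near a member would more easily touch it and remove it from the set, so the rule itself favours short neighbours. Using intervals of at least 50 bp in every list, 17.2% of the regions with this make-up had ROW within 500 bp.

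The HP1c list was shorter than the ROW list (2711 against 8999 intervals), and its intervals lay farther away. The nearest was at a median of 15743 bp (13009 to 19607 bp, 412 members), and 2 members were on an arm without any HP1c interval. It was within 500 bp of 15 members (3.62%, 2.04 to 5.91%). With equal-length lists of the widest intervals the medians were 12061.5 bp to HP1c and 9574 bp to ROW. For comparison, among the 650 regions of Dsk2 and WOC alone HP1c was within 500 bp of 60 (9.23%, 7.12 to 11.7%) and at a median of 7094.5 bp (5937 to 8664 bp). The share of those regions with ROW within 500 bp was 39.1% (35.3 to 42.9%), which overlaps the interval for members. Within 50 bp, ROW was found beside 10.4% (7.62 to 13.7%) of members and 3.69% (2.38 to 5.44%) of the regions of Dsk2 and WOC alone.

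**Figure D3:**
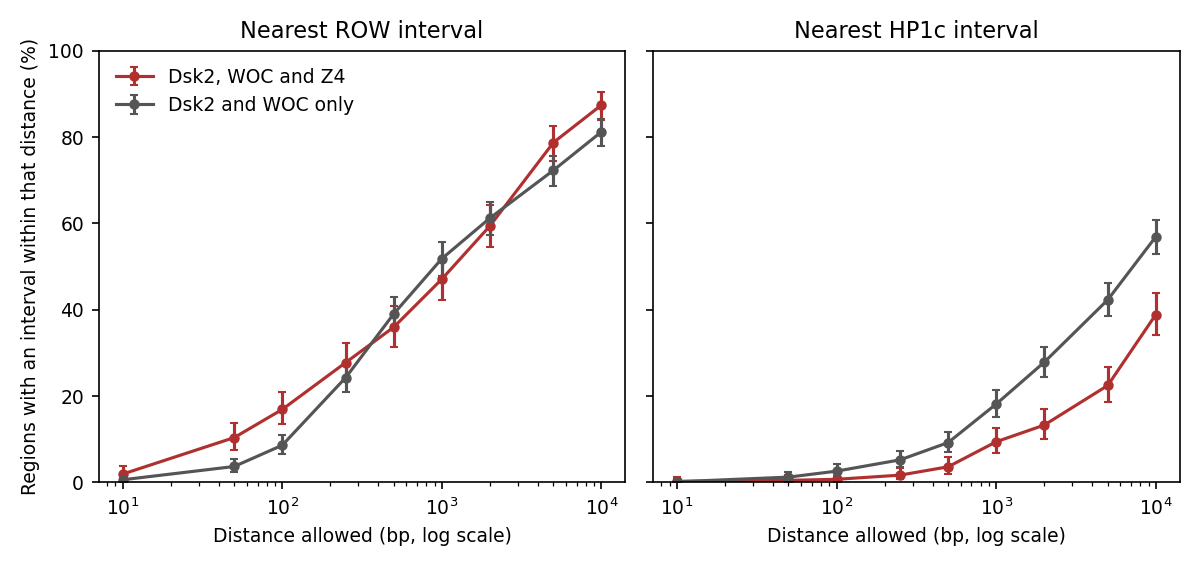
Share of merged regions with a ROW interval (left) or an HP1c interval (right) within a given distance in bp, on a log axis. Points are the members and the regions of Dsk2 and WOC alone, and bars are exact 95% intervals. The ROW curves lie close together from 250 bp to 2000 bp, and HP1c is within 10000 bp of 38.9% of members against 56.9% of the other regions.

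The edge of the rule was narrow for some regions. The closest ROW intervals were 2 bp from members on 2L (18974325 to 18974975, ROW of 19 bp), 2R (16904834 to 16905372, ROW of 52 bp) and 3R (11182490 to 11183024, ROW of 56 bp). Within 10 bp of a ROW interval there were 8 members. Just outside the rule, ROW shared at most 10 bp with the trio in 31 of the 1299 regions that had ROW and no HP1c. On 2L from 2492527 to 2492977 the ROW interval was a single position inside the Z4 interval. On 2R from 13356628 to 13357804 a ROW interval of 544 bp shared 2 bp with Z4, and on X from 18677467 to 18678059 a ROW interval of 2 bp lay within all of Dsk2, WOC and Z4. The 2L and X regions thus differed from members by a ROW call of 1 or 2 bp. The 2R region held a long ROW interval and was set apart from members by an overlap of 2 bp.

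At the other extreme, the 3 members farthest from ROW lay on unplaced sequence. A member on Uextra from 6346585 to 6346807 was 4466018 bp from the nearest ROW interval, another on Uextra from 6950089 to 6950414 was 3862411 bp away and 1 on U from 4396818 to 4396870 was 380526 bp away. Distances on these sequences depend on how unplaced pieces were joined and say little about spacing in the genome. The members farthest from HP1c lay on U (1178632 to 1179008) and on 2RHet (3197840 to 3198074 and 2900392 to 2900871).

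In regions with ROW, the ROW interval met Z4 more often than the other proteins. ROW shared bases with Z4 in 1292 of 1299 (99.5%), with Dsk2 in 745 (57.4%) and with WOC in 751 (57.8%), and in 489 (37.6%, 35.0 to 40.3%) it met Z4 alone. Z4 intervals were the widest in these regions at the median (550.5 bp, against 221 bp for Dsk2 and 269 bp for WOC). A ROW interval that reaches the trio from outside tends to meet the widest first, so the rule itself favours these shares. A preference of ROW for Z4 was not tested. Around the WOC midpoint of these regions, ROW covered 41.3% of regions at the centre, 49.96% at 250 bp to the left and 48.7% at 250 bp to the right. Z4 covered 63.8% of these regions at 250 bp to the left, against 29.95% of members. Outside their own intervals, members had ROW coverage of 3.38% at 500 bp to the left and 7.005% at 2500 bp to the left, and in the regions with ROW the values were 31.7% and 10.5%. Members were chosen for having no ROW and the other regions for having it, so values near the centre are set in part by the rule. Coverage around members did not rise steadily with distance, with 4.11% at 1000 bp and 8.45% at 1700 bp to the left.

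**Figure D4:**
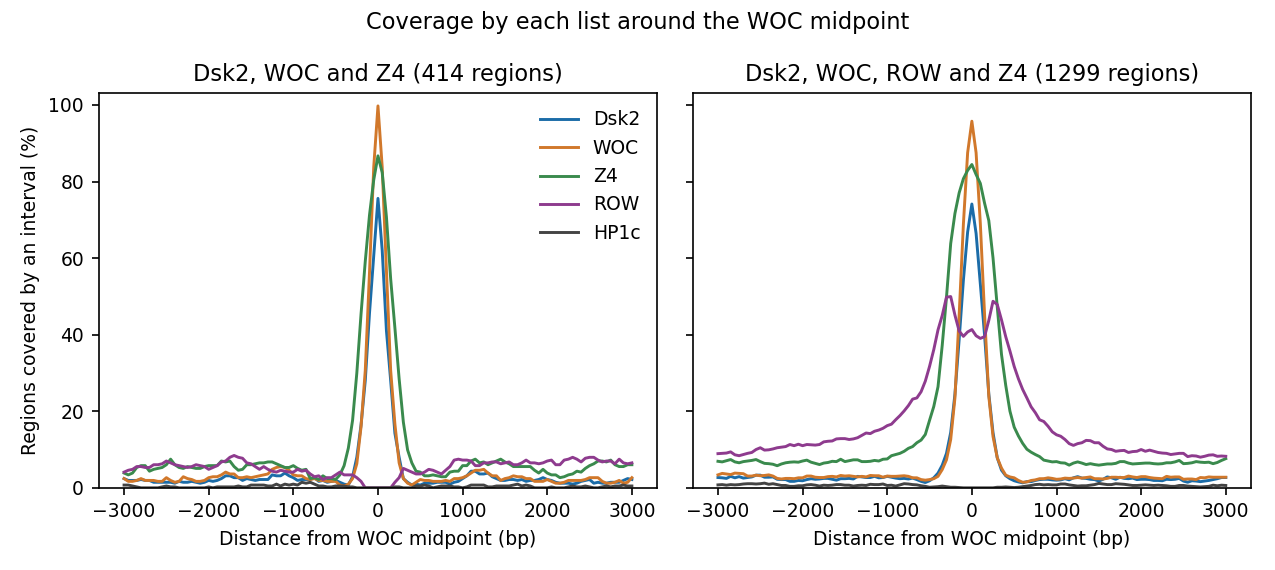
Percentage of merged regions covered by an interval of each list, by distance in bp from the WOC midpoint, in steps of 50 bp. Left, the 414 members, with ROW and HP1c at 0% at the centre by rule and WOC, Dsk2 and Z4 at 99.8%, 75.6% and 86.7%; right, the 1299 regions that also have ROW.

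The side on which ROW lay was compared with the side to which Z4 was shifted from the mean of the Dsk2 and WOC midpoints. Of the 149 members with ROW within 500 bp, ROW lay on the Z4 side in 86 (57.7%, 49.4 to 65.8%). The interval includes an even split. Over all 413 members with a shift the share was 53.8% (48.8 to 58.6%). A ROW interval on the Z4 side meets Z4 sooner and is then not a member, which bears on these shares.

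The members were spread unevenly over the chromosome arms. The rule did not use the arm directly, but it required absence of ROW, and the density of ROW intervals differed between arms. The X chromosome held 119 (28.7%, 24.4 to 33.4%), 2L 73, 3L 73, 3R 72 and 2R 45, and 18 (4.35%, 2.60 to 6.78%) lay on the small chromosome 4. By comparison, X held 19.1% and chromosome 4 held 0.782% of all merged regions. With every interval set to 200 bp, 18.1% of the regions of this make-up were on X, and with equal-length lists of the widest intervals 10.5%. The share of all merged regions on X is not given for these settings, so 19.1% does not apply to them. With 200 bp intervals, X held 374 regions with Dsk2, WOC and Z4, and 2L, 2R, 3L and 3R together 1966. With equal-length lists these counts were 113 and 1057, and under the rule itself 426 and 2306. Of the 1299 regions with ROW and no HP1c, 10.9% (9.29 to 12.8%) were on X and 1.69% (1.06 to 2.55%) on chromosome 4. Regions of Dsk2 and WOC alone had nearly the same share on X as members, 28.9% (25.5 to 32.6%), but 0.308% (0.0373 to 1.11%) on chromosome 4. A further 14 members lay on heterochromatic or unplaced sequence.

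Members numbered 5.31 per Mb on X, 3.18 on 2L, 2.98 on 3L, 2.58 on 3R, 2.13 on 2R and 14.8 on chromosome 4, with arm lengths taken between the outermost called positions. ROW intervals numbered 63.1 per Mb on X and 55.3 on chromosome 4, against 68.6 on 2L, 73.6 on 3L, 78.1 on 3R and 89.2 on 2R. Over these 6 arms the order of members per Mb was the reverse of the order of ROW intervals per Mb. The part of ROW density, read depth or copy number of the arms in the members' distribution was not tested. Members on X were not wider than the rest, with a median of 363 bp against 381 to 428 bp on the other large arms, and those on chromosome 4 had 258.5 bp.

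Lack of ROW at regions with Dsk2, WOC and Z4 was more frequent on X, with or without HP1c. On X, 164 of 426 such regions (38.5%, 33.9 to 43.3%) lacked ROW, and on 2L, 2R, 3L and 3R together 407 of 2306 (17.6%, 16.1 to 19.3%). Without HP1c the shares were 45.6% (39.4 to 51.8%) and 19.1% (17.0 to 21.2%), and with HP1c they were 27.3% (20.6 to 34.7%) and 15.5% (13.3 to 18.0%). On chromosome 4 it was 19 of 46 (41.3%, 27.0 to 56.8%). Lack of HP1c was about as frequent on X (61.3%, 56.5 to 65.9%) as on the large autosomal arms (59.8%, 57.8 to 61.8%). With no ROW allowed within 500 bp, the shares were 26.1% on X and 9.76% on those arms. Among the widest intervals alone, equally many from each list, they were 54.9% (45.2 to 64.2%) and 50.2% (47.2 to 53.3%), so that the arms did not differ beyond the counting intervals with that setting. With every interval set to 200 bp they were 67.6% and 58.3%.

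Under the rule itself, the difference between arms was seen where Z4 was present. Among regions with Dsk2 and WOC but no Z4, 83.4% (78.9 to 87.3%) lacked ROW on X and 83.3% (80.5 to 85.8%) on 2L, 2R, 3L and 3R. Regions without Z4 thus mostly lacked ROW on either. Those of Dsk2 and WOC alone were also narrower, at a median of 189 bp against 392.5 bp for members. Whether Z4 itself bears on the difference between arms was not tested. Among regions with Z4 but neither Dsk2 nor WOC, 47.4% (43.0 to 51.8%) lacked ROW on X and 29.7% (27.9 to 31.6%) on those arms. It was therefore not peculiar to regions with Dsk2 and WOC.

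The width of Z4 moved with the lack of ROW. When the regions with Dsk2, WOC and Z4 on the 5 large arms were put in 3 equal classes by the length covered by Z4, the class of 1 to 426 bp lacked ROW in 57.7% (50.7 to 64.5%) on X and 39.8% (36.2 to 43.6%) on the autosomal arms. In the class of 427 to 714 bp the shares were 33.9% (25.4 to 43.2%) and 13.1% (10.9 to 15.7%). In the class from 715 bp upward they were 4 of 100 regions (1.10 to 9.93%) and 2.84% (1.81 to 4.23%). The arms thus differed beyond the counting intervals in the classes of shorter Z4, and in the widest class few regions on either lacked ROW. A wider Z4 interval also has more room to meet ROW. From the shortest to the widest class there were 208, 118 and 100 regions on X and 703, 792 and 811 on the autosomal arms. The shortest class was thus the largest on X and the smallest on the autosomal arms. The part of Z4 length in the difference between arms was not tested.

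**Figure D5:**
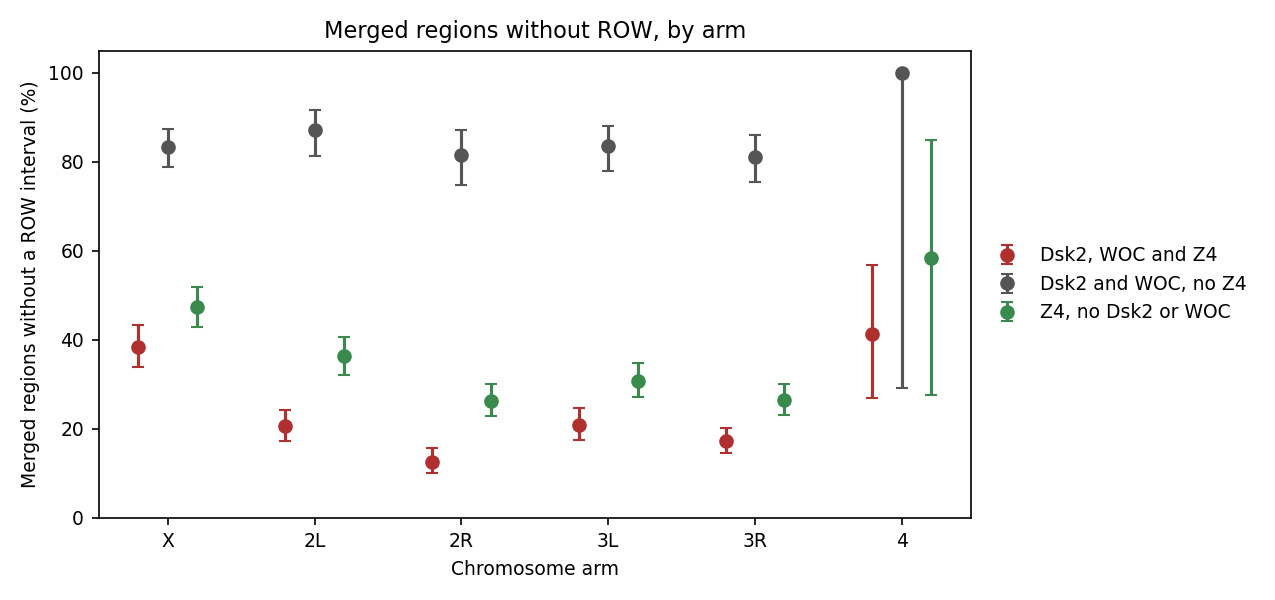
Percentage of merged regions without a ROW interval on each chromosome arm, for regions with Dsk2, WOC and Z4, regions with Dsk2 and WOC but no Z4, and regions with Z4 but neither Dsk2 nor WOC. Bars are exact 95% intervals. Regions with Dsk2, WOC and Z4 lack ROW in 38.5% on X and in 12.6% to 20.8% on the other large arms, whereas regions without Z4 lie above 80% on all 5 large arms.

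Within X, members also lay farther from ROW, at a median of 2615 bp, with 33 of 119 (27.7%) having ROW within 500 bp. The medians on the other large arms ran from 709 bp on 2R to 1607 bp on 2L, and on chromosome 4 the median was 484 bp, with 10 of 18 members within 500 bp. ROW was thus close to a larger share of the members on chromosome 4 than of those on X.

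Most merged regions next to a member along its arm were of another make-up. Of the 826 neighbouring merged regions, 60 (7.26%) were members, with each adjacent pair of members counted from both sides, while members were 3.17% of all merged regions. Regions of ROW alone made up 254 neighbours (30.8%, 27.6 to 34.0%), against 26.3% of all merged regions, and regions with Dsk2, WOC, ROW and Z4 made up 107 (13.0%, 10.7 to 15.4%), against 9.96%. Regions of Dsk2 and WOC alone made up 30 (3.63%, 2.46 to 5.14%), against 4.98%. The median distance to a neighbour was 2233.5 bp. The uneven spread over arms enters these shares.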

How the data were processed

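ChIP-Seq was done on S2 cells with 5 antibodies and 2 inputs (7 samples). The deposited files list the start and end position of each called interval, with no score, signal or read number. The authors called intervals against input, per the series' design text. Bowtie 0.12.5, CASAVA 1.8, FastQC 0.9.3 and the dm3 build are named in the submitters' processing notes. Which caller, threshold and duplicate handling were applied is not stated in the labels or files. Intervals of 1 list lay at least 301 bp apart.

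Widths are end minus start plus 1. Midpoints of several intervals of 1 protein were weighted by width. Intervals of medians come from order statistics at the 95% level. Chaining was tested on simulated regions in which all intervals held a common position, and on intervals that met at their ends. Regions of all 3 proteins without a common base were not simulated. The members, comparisons and named regions were chosen with earlier results of these data known, and the splits by arm, Z4 width, neighbours and ROW contacts after the values were seen. Named regions are the 3 most extreme members by width, common stretch, distance to ROW (nearest and farthest) and to HP1c, and midpoint agreement, the member of median width, and the 3 regions with least ROW overlap. Tools were pandas 2.3.3, SciPy 1.17.1 and NumPy 2.4.6 under Python 3.11.15, with matplotlib 3.10.9.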

Additional observations from a re-analysis of the deposited data

How the results depend on the processing

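Of 84 values under alternatives for 12 results, 46 stayed within the counting interval of the reported value (for counts, within 1.5 times) and 38 did not. The number of regions was 413 with end-exclusive intervals, 499 with at least 50 bp shared and 424 with intervals of at least 50 bp, and these overlapped 409, 296 and 298 of the 414 members. It was 983 with every interval set to 200 bp (overlapping 373), 392 with equal-length lists of the widest intervals (overlapping 66) and 255 with no ROW or HP1c within 500 bp.

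With at least 50 bp shared, the median width was 452 bp, 99.0% had a common base, ROW lay at a median of 163 bp and HP1c at 10701 bp, 57.5% had ROW within 500 bp, 22.0% were on X and 23.6% of autosomal regions lacked ROW. With intervals of at least 50 bp these were 446.5 bp, 98.6%, 3036 bp, 23418.5 bp and 17.2%, and 19.7% of autosomal regions lacked ROW. With 200 bp intervals the width was 271 bp, Dsk2 and Z4 midpoints were 46 bp apart, ROW lay at 185 bp and HP1c at 10037.5 bp, 67.9% had ROW within 500 bp, 18.1% were on X, and 67.6% of X and 58.3% of autosomal regions lacked ROW. With equal-length lists the width was 656 bp, 100% had a common base, Dsk2 and WOC midpoints were 23.5 bp apart, ROW lay at 9574 bp and HP1c at 12061.5 bp, 1.28% had ROW within 500 bp (on the Z4 side in 80% of 5), 10.5% were on X, and 54.9% of X and 50.2% of autosomal regions lacked ROW. With no ROW or HP1c within 500 bp, ROW lay at 3069 bp, and 26.1% of X and 9.76% of autosomal regions had no ROW that close. With 1 interval of each protein, 45.0% of X and 21.7% of autosomal regions lacked ROW. With no ROW or HP1c within 500 bp, members near ROW are left out, which lengthens the ROW distance by construction. Intervals of at least 50 bp and equal-length lists remove ROW intervals, which can lengthen it. They also remove Dsk2, WOC and Z4 intervals, and their regions overlapped 298 and 66 of the 414 members. The part of removed ROW intervals in these longer distances was not tested. With at least 50 bp shared, regions that ROW overlaps by fewer bases are let in, which can shorten the ROW distance. The regions of that setting overlapped 296 members, and the part of the regions let in was not tested. The cause of the other shifts was not tested. The settings for large arms alone and for a common base, and the shares lacking ROW, were added after the data were seen.

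No paired analysis was possible because each protein had 1 library. Depth is unknown, so whether a missing ROW or HP1c call reflects low signal cannot be judged.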
